A study of Mus musculus with 24 samples.

Results

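The genes described here are 10 transcription factors and adaptors that build or work beside the GATA1 complex of red cell and platelet precursors. They were taken by gene symbol from a table of 24454 genes, and all 10 were found and passed the filter on low counts. They are the zinc finger factors Gata1, Gata2, Klf1 and Gfi1b, the basic helix-loop-helix factors Tal1 and Lyl1, the adaptors Lmo2 and Ldb1, the GATA cofactor Zfpm1 (also called FOG1) and the leucine zipper subunit Nfe2. Between populations 7 of the 10 differed in preMegE against LTHSC, where 40.7% of all genes tested did, 7 in MkP against LTHSC (34.7% of all genes) and 3 in MkP against preMegE (7.54%). Between genotypes of one population 0 of the 10 passed the threshold in any of 7 comparisons, where 0% to 0.0919% of all genes did.

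GATA factors bind DNA at a short motif built around the letters GATA. In stem cells GATA2 occupies many of these sites, and GATA1 takes over as cells mature towards erythrocytes, megakaryocytes and mast cells, an exchange known as the GATA switch. GATA1 works in a complex in which TAL1 (or its close relative LYL1) contacts DNA beside it, LMO2 bridges the DNA-binding proteins, and LDB1 binds LMO2 and joins distant complexes. ZFPM1 binds GATA1 and GATA2 directly and is needed for megakaryocytes to form. KLF1 drives late erythroid genes and holds back the megakaryocyte programme, GFI1B is a repressor needed for both lineages, and NFE2 pairs with small MAF proteins to switch on platelet genes.

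RNA came from bone marrow cells of C57BL/6N mice, sorted as LTHSC (long-term haematopoietic stem cells), preMegE (progenitors with megakaryocyte and erythroid potential) and MkP (megakaryocyte progenitors). Tamoxifen was given to every group for 5 days, with cell sorting 12 weeks afterwards, so no group is free of the drug. The labels give 3 genotypes: KI, a mouse Jak2 knock-in with Scl-Cre; E12, Jak2 exon 12 with Scl-Cre; and VF, the valine-to-phenylalanine Jak2 mutation with Vav1-Cre. There were 3 libraries in each of 8 groups, LTHSC and MkP of all 3 genotypes and preMegE of KI and VF. Scl-Cre and Vav1-Cre are drivers active in blood-forming cells, and since the driver changes together with the VF genotype, mutation and driver cannot be told apart in a VF comparison. The sample labels do not call any group wild type, so KI serves only as the common reference. They also do not say that replicates were separate animals, so p-values measure the spread between these libraries, which may be technical.

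Libraries held 10357877 to 29691635 counts. The sort markers Ly6a and Itga2b followed the names. Ly6a (Sca-1) was at 143 to 267 CPM in LTHSC, at most 15.1 in preMegE and at most 40.8 in MkP. Itga2b (CD41) was at 597 to 1810 in MkP and at most 406 elsewhere, and Kit was present in every library. Slamf1 and Eng overlapped between populations, with Slamf1 at 16.5 to 145 CPM in LTHSC, 13.5 to 25.9 in preMegE and 18.9 to 76.2 in MkP. Fcgr3 was at 30.8 to 83.6 CPM in preMegE VF against 4.54 to 9.45 in preMegE KI, and at 222 in LTHSC E12 replicate 4. A library was set apart where its TMM scaling factor within its population was under 0.8, which held for 4 libraries: LTHSC E12 replicate 4, preMegE KI replicate 1 and MkP KI replicates 5 and 6. The last 3 had 8858 to 18980 CPM of the nuclear RNA Malat1, against at most 4137 in the other libraries, and Kit at 104 to 107. LTHSC E12 replicate 4 had 16070 CPM of the granule enzyme Mpo and 479 of Cd48, a surface protein that long-term stem cells lack. Results are therefore given with and without these libraries where they rest on them. Levels are CPM scaled by TMM factors over all 24 libraries, and levels of different genes are compared only as RPKM, which divides by the gene length in the deposited table. In sorted bulk samples, fewer cells of a type and less RNA per cell cannot be told apart.

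Per length, the order of the 10 members differed between populations. In LTHSC the highest median RPKM were those of Lmo2 (340) and Nfe2 (254), followed by Lyl1 (107), Gfi1b (83.5), Gata2 (80.8), Gata1 (36.6), Tal1 (23.5), Klf1 (11.1), Ldb1 (9.54) and Zfpm1 (9.43). In preMegE Klf1 came first with a median RPKM of 423, followed by Gata1 (234), Gfi1b (230), Lmo2 (211.5) and Nfe2 (182). The ranges of these last 4 over the 6 preMegE libraries overlapped, at 109 to 295 for Gata1 and 164 to 261 for Lmo2, so their order is not firm. In MkP the first 5 by median RPKM were Lmo2 (345), Nfe2 (216.5), Gfi1b (174), Gata1 (157) and Gata2 (138). The adaptor Ldb1 stayed the lowest or nearly the lowest in every population, with medians of 9.54, 15.2 and 12.4 RPKM in LTHSC, preMegE and MkP.

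**Figure D1:**
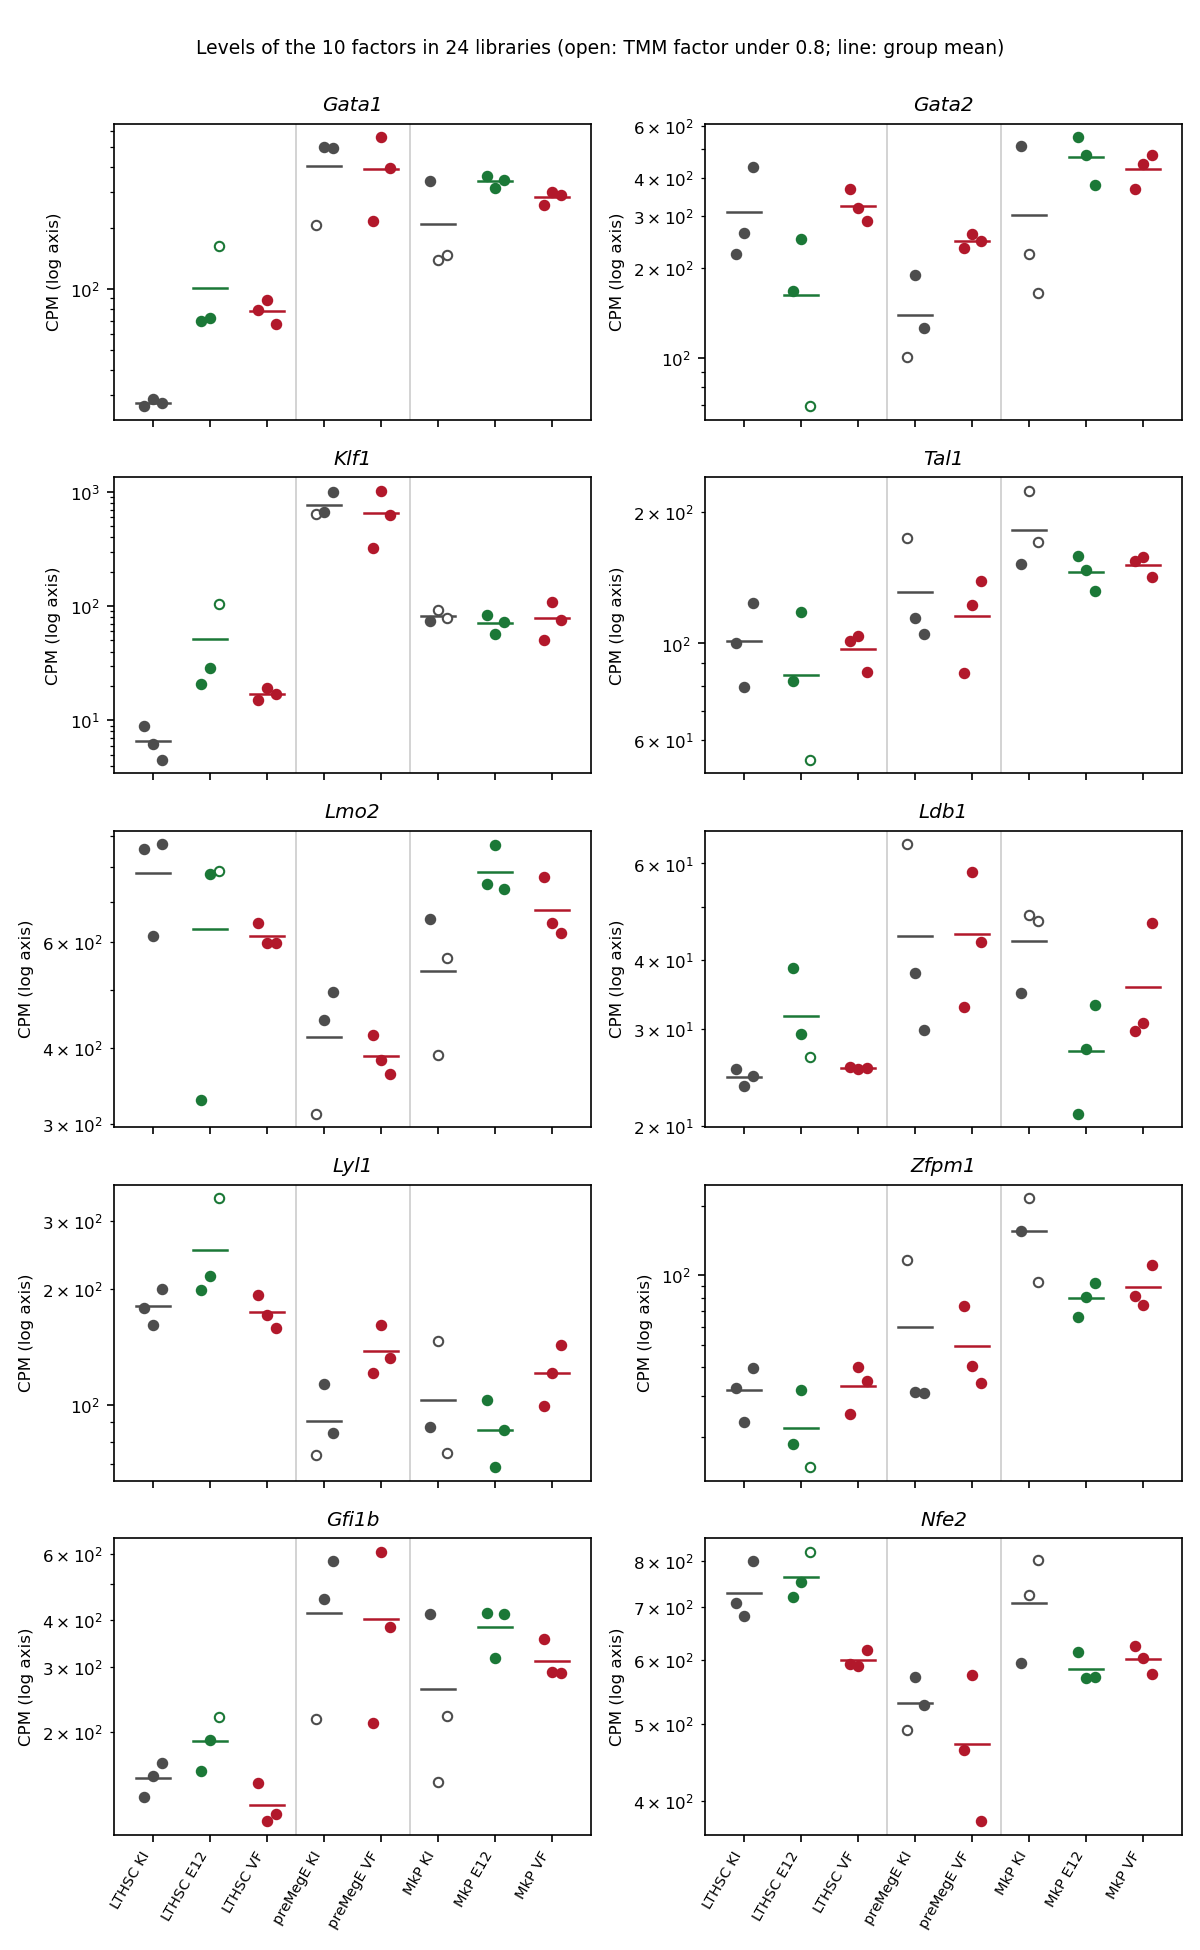
CPM on log axes for each of the 10 factors in all 24 libraries, 3 points and a mean line per group, grey for KI, green for E12 and red for VF, with open points for the 4 libraries of TMM factor under 0.8. Klf1 rises from 4.51 CPM in LTHSC KI to 1024 in preMegE VF, while Nfe2 stays between 377 and 821 CPM in all 24 libraries.

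Gata1, Klf1 and Gfi1b were the members that were higher in both progenitor populations than in stem cells. Gata1, the factor the complex is named after, was at 26.6, 28.8 and 27.6 CPM in LTHSC KI, at 69.6, 72.3 and 162 in LTHSC E12 and at 79.1, 88.4 and 67.3 in LTHSC VF. In preMegE it was at 207, 499.8 and 496 CPM in KI and at 217, 560.3 and 393 in VF, and in MkP at 340, 139 and 148 in KI, 359, 314 and 346 in E12 and 259, 299 and 290.1 in VF. All 6 preMegE libraries lay above all 9 LTHSC libraries, and in MkP only KI replicates 5 and 6 lay below the highest LTHSC library, LTHSC E12 replicate 4. Averaged over the genotypes that both populations share, Gata1 was 3.09 higher on the log2 scale in preMegE than in LTHSC (SE 0.31, edgeR adjusted p = 4.1e-07) and 2.17 higher in MkP than in LTHSC (SE 0.24, adjusted p = 7.4e-07). With the 4 libraries of low scaling factor left out, these differences were 3.18 (SE 0.17) and 2.53 (SE 0.15). The difference of MkP from preMegE, -0.70 (SE 0.28), missed the threshold with an adjusted p of 0.15, and passed it only when preMegE KI replicate 1 (-0.86, adjusted p = 0.041) or MkP KI replicate 4 (-0.98, adjusted p = 0.021) was left out. The share of all genes called was 12% and 12.5% in these 2 fits.

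Klf1, the erythroid Krüppel-like factor, had the largest range of the 10. It was at 8.94, 6.15 and 4.51 CPM in LTHSC KI, at 20.7, 28.7 and 105 in LTHSC E12 and at 15.03, 19.2 and 17.0 in LTHSC VF. The preMegE libraries held 635, 663 and 997 CPM in KI and 323, 1024 and 629 in VF, and the 9 MkP libraries 50.4 to 110, with a median of 75.8. Every preMegE library was above every other library, while the MkP range contains the value of LTHSC E12 replicate 4. The log2 difference was 6.07 for preMegE against LTHSC (SE 0.42, adjusted p = 8.8e-09), 2.11 for MkP against LTHSC (SE 0.29, adjusted p = 9.1e-06) and -3.14 for MkP against preMegE (SE 0.36, adjusted p = 2.4e-05). Within the E12 genotype alone MkP and LTHSC differed in Klf1 by 0.47 (adjusted p = 0.67), against 3.65 within KI and 2.20 within VF. Klf1 was thus the member that separated the preMegE libraries from both other populations most widely.

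Gfi1b, a zinc finger repressor that shares target sites with GATA1, was at 115 to 219 CPM in the 9 LTHSC libraries, with a median of 152. It was at 217, 456 and 577.5 CPM in preMegE KI, at 212, 609 and 383 in preMegE VF, and at 147 to 417.5 in MkP, with a median of 317. The preMegE libraries lay above all LTHSC libraries of KI and VF, and only LTHSC E12 replicate 4, at 219, reached above the lowest of them, while MkP KI replicate 5 lay inside the LTHSC range. Gfi1b was 1.56 higher on the log2 scale in preMegE than in LTHSC (SE 0.28, adjusted p = 0.00023) and 1.03 higher in MkP (SE 0.23, adjusted p = 0.0013). MkP and preMegE differed by -0.52 (SE 0.27, adjusted p = 0.29).

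Gata1, Klf1 and Gfi1b also varied together over the 24 libraries, with Pearson r of 0.857 for Gata1 with Klf1, 0.871 for Gata1 with Gfi1b and 0.728 for Klf1 with Gfi1b. These r are descriptions: the points share the population differences above and the same scaling factors. Because these 3 genes move together, the 250 bases before their first listed start are shown, read in the direction of the gene from the RefSeq table for GRCm38.p6. Capitals mark the GATA motif, spelled AGATAA or AGATAG, with TGATAA and TGATAG also accepted, and searched on both strands.
Gata1 (chrX:7967911-7968160, minus strand): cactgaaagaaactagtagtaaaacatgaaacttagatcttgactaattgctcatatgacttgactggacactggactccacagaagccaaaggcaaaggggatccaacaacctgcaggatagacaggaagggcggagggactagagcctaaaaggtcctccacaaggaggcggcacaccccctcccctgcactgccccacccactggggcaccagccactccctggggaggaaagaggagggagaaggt
Klf1 (chr8:84901732-84901981, plus strand): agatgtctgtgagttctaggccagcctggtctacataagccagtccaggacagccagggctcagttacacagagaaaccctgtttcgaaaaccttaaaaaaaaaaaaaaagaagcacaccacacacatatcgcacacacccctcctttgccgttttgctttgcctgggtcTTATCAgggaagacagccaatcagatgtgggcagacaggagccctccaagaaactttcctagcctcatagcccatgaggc
Gfi1b (chr2:28621983-28622232, minus strand): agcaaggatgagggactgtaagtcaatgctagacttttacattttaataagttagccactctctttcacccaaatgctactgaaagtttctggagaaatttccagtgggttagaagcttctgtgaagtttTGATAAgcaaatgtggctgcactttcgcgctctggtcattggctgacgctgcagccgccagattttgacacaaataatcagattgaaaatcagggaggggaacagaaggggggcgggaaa

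The Gfi1b window holds TGATAA from 120 to 115 bases before the start, followed after 1 base by the E-box letters CAAATG, and the Klf1 window holds the same motif on the opposite strand, read as TTATCA, from 80 to 75 bases before the start. The Gata1 window holds none of the 4 spellings, which says only that these letters are not in these 250 bases. The table lists 12 starts for 8 of the members, with Lmo2 and Nfe2 not matched, and the GATA motif stands in 4 of these 12 windows, against 26.5% of all 32851 windows of the same length. The other members with a match are Tal1, at the first of its starts, and Ldb1, with 2 matches before one of its starts. A match is a description of letters and does not show that a factor binds there.

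Gata2, the GATA factor of stem cells, was at 224, 262 and 437 CPM in LTHSC KI, 168, 249.8 and 69.3 in LTHSC E12 and 367, 317 and 287 in LTHSC VF. It was at 101, 190.2 and 126 CPM in preMegE KI and at 234, 261 and 247 in preMegE VF, and reached 514, 224 and 166 in MkP KI, 549, 479.9 and 381 in MkP E12 and 367, 447 and 478 in MkP VF. The 3 preMegE KI libraries were below the 3 LTHSC KI libraries, and the 6 MkP libraries of E12 and VF were above all preMegE libraries. Gata2 was lower in preMegE than in LTHSC by -0.77 on the log2 scale (SE 0.29, adjusted p = 0.042) and higher in MkP than in LTHSC by 0.64 (SE 0.24, adjusted p = 0.043) and than in preMegE by 0.96 (SE 0.30, adjusted p = 0.05 after rounding, just under the threshold). These are the least stable calls of the 10 genes. The call against LTHSC held on leaving out 3 of 12 libraries for preMegE (adjusted p 0.025 to 0.13) and 6 of 18 for MkP (0.017 to 0.11), and MkP against preMegE held on leaving out 3 of 12 (0.025 to 0.11). Within KI alone MkP and LTHSC differed in Gata2 by -0.03. When the 4 libraries of low scaling factor were left out, Gata2 in preMegE against LTHSC was at -0.73 (adjusted p = 0.0017), in MkP against LTHSC at 0.72 (adjusted p = 0.00096) and in MkP against preMegE at 1.27 (adjusted p = 0.00029).

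The ratio of Gata1 to Gata2 within a library does not depend on how libraries are scaled against each other. Per length, the log2 ratio was -2.65 ± 0.50 (SD, n = 3) in LTHSC KI, -1.28 ± 0.19 in LTHSC VF and 0.16 ± 1.61 in LTHSC E12, where replicate 4 alone reached 2.00. It was 2.24 ± 0.47 in preMegE KI and 1.32 ± 0.62 in preMegE VF. In MkP it was 0.29 ± 0.28, 0.32 ± 0.27 and 0.17 ± 0.11 in KI, E12 and VF. All 9 MkP libraries stood between 0.05 and 0.63, so both transcripts were near equal per length there, whereas all 6 preMegE libraries held more Gata1 (0.66 to 2.74), and 8 of 9 LTHSC libraries held more Gata2. In LTHSC the 3 VF libraries all lay above the 3 KI libraries, whose highest ratio was -2.30 against a lowest of -1.44 in VF. The 3 E12 libraries also lay above KI, at -0.50 in replicate 11, -1.02 in replicate 2 and 2.00 in replicate 4.

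**Figure D2:**
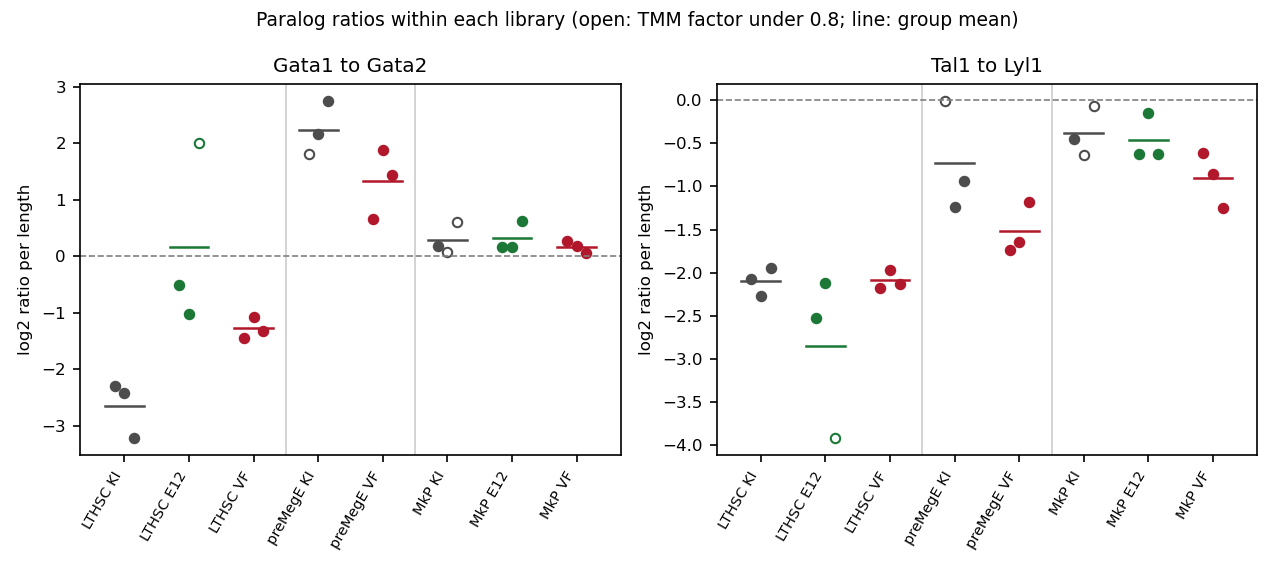
Log2 ratios per length of Gata1 to Gata2 (left) and of Tal1 to Lyl1 (right) in each library, with group means as lines, grey for KI, green for E12 and red for VF, and open points for libraries of TMM factor under 0.8. The dashed line is an equal level per length; the 9 MkP libraries lie between 0.05 and 0.63 for Gata1 to Gata2, and LTHSC E12 replicate 4 is the LTHSC point at 2.00.

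The related factors Tal1 and Lyl1 moved in opposite directions. Tal1, the main helix-loop-helix partner in erythroid and megakaryocyte cells, was at 54.1 to 123.5 CPM in LTHSC (median 100.4), 85.8 to 174.5 in preMegE (median 118) and 132 to 224 in MkP (median 154.5), with the highest value in MkP KI replicate 5. All 9 MkP libraries were above all 9 LTHSC libraries, and Tal1 was 0.76 higher there on the log2 scale (SE 0.16, adjusted p = 0.0013). Against LTHSC the preMegE value was 0.31 (SE 0.20, adjusted p = 0.22), with overlapping libraries.

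Lyl1 was at 158 to 343.5 CPM in LTHSC (median 193), 74.2 to 161 in preMegE (median 117) and 68.8 to 147 in MkP (median 99.2). All 9 MkP libraries were below all 9 LTHSC libraries, and only preMegE VF replicate 2, at 161, reached into the LTHSC range. Lyl1 was lower than in LTHSC by -0.66 in preMegE (SE 0.20, adjusted p = 0.012) and by -0.96 in MkP (SE 0.16, adjusted p = 0.00014). The Lyl1 gene overlaps the gene of Nfix, and the labels do not say whether counting used strand, so reads of the 2 genes may not be fully separated. As a ratio per length, Tal1 to Lyl1 stood at -3.91 to -1.94 on the log2 scale in LTHSC, -1.74 to -0.01 in preMegE and -1.25 to -0.06 in MkP. Lyl1 thus exceeded Tal1 per length in all 24 libraries, by least in the progenitors. That order rests on the length scaling. In plain counts the mean log2 ratio was 0.341 to 0.863 in the MkP groups, 0.519 in preMegE KI and -0.273 in preMegE VF. In the LTHSC groups it was -1.60 to -0.842.

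Of the adaptors, Lmo2 was lower and Ldb1 higher in preMegE than in stem cells. Lmo2 was at 857, 615.5 and 871.5 CPM in LTHSC KI, 646.5, 599 and 599 in LTHSC VF, 312, 445 and 496 in preMegE KI and 422, 382 and 363 in preMegE VF. Every preMegE library lay below these 6 LTHSC libraries, and Lmo2 was lower by -0.78 (SE 0.22, adjusted p = 0.0085). In LTHSC E12 the values were 329, 779 and 788, so replicate 11 lies inside the preMegE range. In MkP Lmo2 was at 391 to 871 CPM and differed from LTHSC by -0.03 (SE 0.18, adjusted p = 0.94).

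Ldb1 was at 23.7 to 38.7 CPM in LTHSC, 29.9 to 65.0 in preMegE and 21.0 to 48.3 in MkP. The 6 preMegE libraries were above the 6 LTHSC libraries of KI and VF, which stood at 23.7 to 25.6, and Ldb1 was 0.83 higher on the log2 scale (SE 0.21, adjusted p = 0.0041). Leaving out the 4 libraries of low scaling factor, it was 0.58 higher (SE 0.17, adjusted p = 0.0095). MkP differed from LTHSC by 0.37 (SE 0.17, adjusted p = 0.11). Over the 24 libraries Lmo2 and Ldb1 ran against each other, with an r of -0.735, again as a description.

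Zfpm1, the cofactor that GATA1 needs in megakaryocytes, was at 14.7 to 40.0 CPM in the 9 LTHSC libraries, with a median of 31.9. In MkP it was at 156, 215.5 and 94.0 in KI, 66.1, 80.2 and 92.6 in E12 and 81.1, 74.6 and 111 in VF, so every MkP library was above every LTHSC library. It was 1.86 higher on the log2 scale in MkP than in LTHSC (SE 0.26, adjusted p = 1.7e-05). In preMegE Zfpm1 was at 116, 31.3 and 31.0 CPM in KI and 73.3, 40.4 and 34.2 in VF, with preMegE KI replicate 1 far above the rest. Against LTHSC the preMegE value was 0.73 (SE 0.32, adjusted p = 0.068), and 0.22 (SE 0.22, adjusted p = 0.44) without the 4 libraries of low scaling factor. Against preMegE MkP was higher by 1.12 (SE 0.32, adjusted p = 0.031), and by 1.598 (SE 0.26, adjusted p = 0.0003) without those libraries. With all libraries that call held on leaving out 5 of 12 single libraries, with an adjusted p between 0.00071 and 0.094.

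Nfe2, the platelet gene activator, was among the most abundant members in every population and varied least. It was at 590.5 to 821 CPM in LTHSC, 377 to 575 in preMegE and 570.1 to 803 in MkP. All 6 preMegE libraries were below all 9 LTHSC libraries, and the difference of -0.41 (SE 0.17) had an adjusted p of 0.063, and of 0.0031 without the 4 libraries of low scaling factor (-0.44, SE 0.11). MkP differed from LTHSC by -0.14 (SE 0.14, adjusted p = 0.47) and from preMegE by 0.39 (SE 0.17, adjusted p = 0.20).

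**Figure D3:**
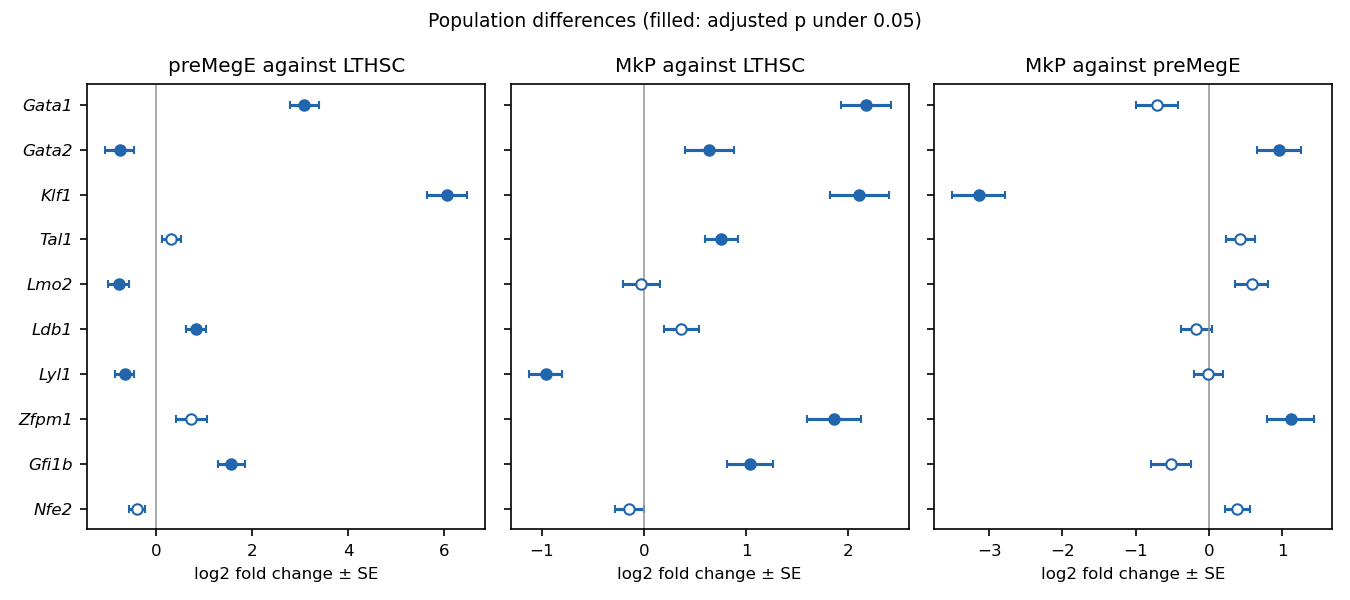
Log2 fold changes with SE (edgeR) of the 10 members for the 3 comparisons between populations, averaged over shared genotypes, with filled points for an adjusted p under 0.05. Klf1 reaches 6.07 in preMegE against LTHSC and -3.14 in MkP against preMegE, and Zfpm1 and Gata2 lie above 0 in MkP against both other populations.

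By count, 4 of the 10 members were higher and 3 lower in preMegE than in LTHSC, where 40.7% of all 14965 genes tested were called. In MkP against LTHSC 6 were higher and 1 lower, at a background of 34.7%, and in MkP against preMegE 2 were higher and 1 lower, at 7.54%. The median log2 difference of the 10 members was 0.52, 0.70 and 0.19 in these comparisons, against -0.02, 0.01 and 0.00 over all genes tested. Without the 4 libraries of low scaling factor the counts were 4 and 4, 6 and 1, and 3 and 1, at backgrounds of 49.8%, 39.2% and 17.0%; Nfe2 was gained in the first and Lmo2 in the last. Within VF alone the 3 comparisons called 3, 2 and 1 members, at backgrounds of 10.6%, 5.46% and 1.02%. MkP against LTHSC within E12 called 4 (6.88%), and MkP against preMegE called 1 within KI (2.89%) and 5 with DESeq2 on all libraries (11.7%).

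Known targets of the complex were read beside the share of all genes called, 40.7% in preMegE against LTHSC, 34.7% in MkP against LTHSC and 7.54% in MkP against preMegE. Of 31 tested erythroid targets 26 were higher and 0 lower in preMegE than in LTHSC (median 3.56), 17 were higher and 5 lower in MkP than in LTHSC (median 0.81), and 1 was higher and 25 lower in MkP than in preMegE (median -2.73). Car1, an early erythroid carbonic anhydrase, had a mean of 1.24 CPM in LTHSC KI and 1956 in preMegE KI (9.48 for preMegE against LTHSC, SE 0.97, adjusted p = 5.8e-07), and Rhd, a red cell surface protein, was lower in MkP than in preMegE by -5.78 (SE 0.65, adjusted p = 2.0e-05). Of 21 tested megakaryocyte targets 17 were higher and 1 lower in MkP than in LTHSC (median 2.10), 6 were higher and 3 lower in preMegE than in LTHSC (median -0.02), and 15 were higher and 0 lower in MkP than in preMegE (median 1.81). Pf4, a platelet chemokine, was 5.99 higher in MkP than in LTHSC (SE 0.58, adjusted p = 1.2e-07) and 4.15 higher in preMegE (SE 0.65, adjusted p = 6.9e-05). Without the 4 libraries of low scaling factor the erythroid counts were 25 and 1, 15 and 5, and 1 and 25, and the megakaryocyte counts, then of 22 tested, 7 and 4 in preMegE against LTHSC, 18 and 2 in MkP against LTHSC, and 20 and 0 in MkP against preMegE.

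Partners and relatives of the members were counted against the same shares of all genes. Of 33 other genes of the complex and its chromatin partners 8 were higher and 1 lower in preMegE than in LTHSC (median 0.26), 9 and 4 in MkP than in LTHSC (median 0.29) and 2 and 0 in MkP than in preMegE (median 0.02). The largest were Lmo4 (1.15 in preMegE against LTHSC, SE 0.36) and the remodelling ATPase Smarca4 (1.03, SE 0.24), and in MkP against preMegE Ctbp2 (0.70, SE 0.21) and Runx1 (0.67, SE 0.19). Of 10 tested paralogs of the members, 5 were lower in MkP than in LTHSC and 0 higher, among them Klf2 (-3.25, SE 0.67) and Gfi1 (-2.36, SE 0.46), and Gata3 was lower in preMegE than in LTHSC by -2.82 (SE 0.34). Klf2 averaged 24.3 CPM in LTHSC KI, 3.42 in LTHSC E12 and 0.514 in LTHSC VF. Its MkP means were 0.182 to 0.821, so the mean of LTHSC VF lay inside the MkP range. Of 9 tested partners and relatives of NFE2, Bach2, a repressor that competes for the same sites, was lower in MkP than in LTHSC by -1.94 (SE 0.36) and Mafg higher by 0.48 (SE 0.19). Of 12 other megakaryocyte factors 7 were higher and 2 lower in MkP than in LTHSC, with Mecom among the lower at -2.58 (SE 0.37), and 0 were higher and 5 lower in preMegE than in LTHSC. Without the 4 libraries of low scaling factor these 2 counts were 5 and 3, and 0 and 8. In the same libraries 8 of the complex partners became lower in preMegE than in LTHSC, beside 11 higher, so the lean towards higher values rests on the full set.

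Markers of other lineages moved with the preMegE libraries. Of 12 tested lymphoid genes 12 were higher in preMegE than in LTHSC, and their summed level was 666 to 4074 CPM in preMegE KI and VF against 108 to 128 in LTHSC KI and VF. Among these genes Nkg7 alone averaged 1147 CPM in preMegE KI and 653 in preMegE VF, so it made up a large part of these sums. Of 15 neutrophil and monocyte genes 8 were higher and 2 lower, with sums of 3218 to 4298 CPM in preMegE KI and 8900 to 19840 in preMegE VF. Of 10 tested mast cell, basophil and eosinophil genes 6 were higher in preMegE and 7 in MkP, and 0 lower; GATA factors are also active in these cells. Their part in the differences of the members was not tested.

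Genotypes were compared within each population to ask whether the Jak2 alleles change the level of these factors. In LTHSC the largest differences were in Gata1 and Klf1. The 3 VF libraries (67.3 to 88.4 CPM of Gata1) and the 3 E12 libraries (69.6 to 162) all lay above the 3 KI libraries (26.6 to 28.8). For Klf1 the VF libraries (15.03 to 19.2 CPM) and the E12 libraries (20.7 to 105) likewise lay above KI (4.51 to 8.94). The share of all genes without overlap between groups of 3 libraries was not counted, so such separation is only a description, here and below. VF against KI gave 1.46 for Gata1 (SE 0.35, edgeR adjusted p = 0.23) and 1.36 for Klf1 (SE 0.57, adjusted p = 0.56). E12 against KI gave 1.88 for Gata1 (SE 0.35, adjusted p = 0.12) and 3.00 for Klf1 (SE 0.60, adjusted p = 0.15). So 0 of 10 members passed in either comparison, where 0.0919% and 0.0424% of 14152 genes were called, although 2 members (Gata1, Klf1) had an unadjusted p under 0.05 for VF and 3 (these and Gata2) for E12. VF against E12 gave 0 calls as well, at a background of 0.0353%, with 3 members at an unadjusted p under 0.05 (Klf1 at -1.64, Gata2 at 0.99 and Gfi1b at -0.60) and 0 called by DESeq2, at 1.17%. Over all 14152 genes tested, 1148 had an unadjusted p under 0.05 in VF against KI, 1957 in E12 against KI and 1560 in VF against E12.

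The LTHSC calls change with 1 library. All 9 libraries share one estimate of the spread, and without LTHSC E12 replicate 4 Gata1 was called in both comparisons, by 1.46 for VF (SE 0.15, adjusted p = 0.0046) and by 1.31 for E12 (SE 0.16, adjusted p = 0.025), at backgrounds of 2.03% and 0.125% of genes. Klf1 then gave 1.36 (SE 0.29, adjusted p = 0.05) and 1.88 (SE 0.32, adjusted p = 0.065), neither called. In the E12 comparison Gata1 (2.08, adjusted p = 0.031) and Klf1 (3.30, adjusted p = 0.038) also passed on leaving out E12 replicate 2, where 2.74% of genes were called. With DESeq2 on all libraries Gata1 was called in both comparisons (adjusted p = 0.012 and 0.00013) and Klf1 for E12 (adjusted p = 4.6e-05), at backgrounds of 1.77% and 3.09%. With limma voom 0 members were called, at 0.0848% and 0.0495%, and with only the KI and VF libraries fitted Gata1 and Klf1 were called, at 6.84%. With only the KI and E12 libraries fitted 0 members were called, at 0.0148%. The 3 VF libraries and E12 replicates 2 and 11 stood close together in Gata1, at 67.3 to 88.4 CPM.

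LTHSC E12 replicate 4 differed from the other 2 E12 libraries in several marker lists. Its summed level of 15 neutrophil and monocyte genes was 27850 CPM against 1743 and 1973, that of mast cell, basophil and eosinophil genes 1112 against 30.4 and 36.3, that of lymphoid genes 1976 against 196 and 282, and that of 14 stem cell genes 675 against 2595 and 3006. Of the lymphoid genes Nkg7 alone averaged 595 CPM over the 3 LTHSC E12 libraries. LTHSC E12 replicate 4 also held the lowest Gata2 (69.3 CPM) and Zfpm1 (14.7) and the highest Lyl1 (343.5) of all 24 libraries. The part of other cells in its Gata1 and Klf1 was not tested. The summed erythroid targets stood at 3335 to 4884 CPM in E12, 2283 to 2809 in KI and 2247 to 2345 in VF. Among these targets Car2 alone averaged 2372 CPM in E12, 1950 in KI and 1554 in VF, so it made up a large part of each sum. Of 31 tested, 3 passed in E12 against KI, among them the near-identical alpha globin genes Hba-a1 and Hba-a2 (5.82 each, SE 0.46, adjusted p = 0.00078), whose reads may be shared between the 2 copies. Those 2 genes summed to 478 to 1255 CPM in E12, and without them the erythroid sum was 2857, 3599 and 3800 CPM in E12 against 2272 to 2786 in KI. In VF against KI in LTHSC the sum hides single targets. The erythroid target Aqp1 was called higher (2.30, SE 0.30, edgeR adjusted p = 0.030), as was the megakaryocyte target Pf4 (2.59, SE 0.38, adjusted p = 0.048). Klf2, a paralog of Klf1, was called lower in the same comparison (-5.58, SE 0.75, edgeR adjusted p = 0.030). Of all 14152 genes 3 were called higher and 10 lower there.

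**Figure D4:**
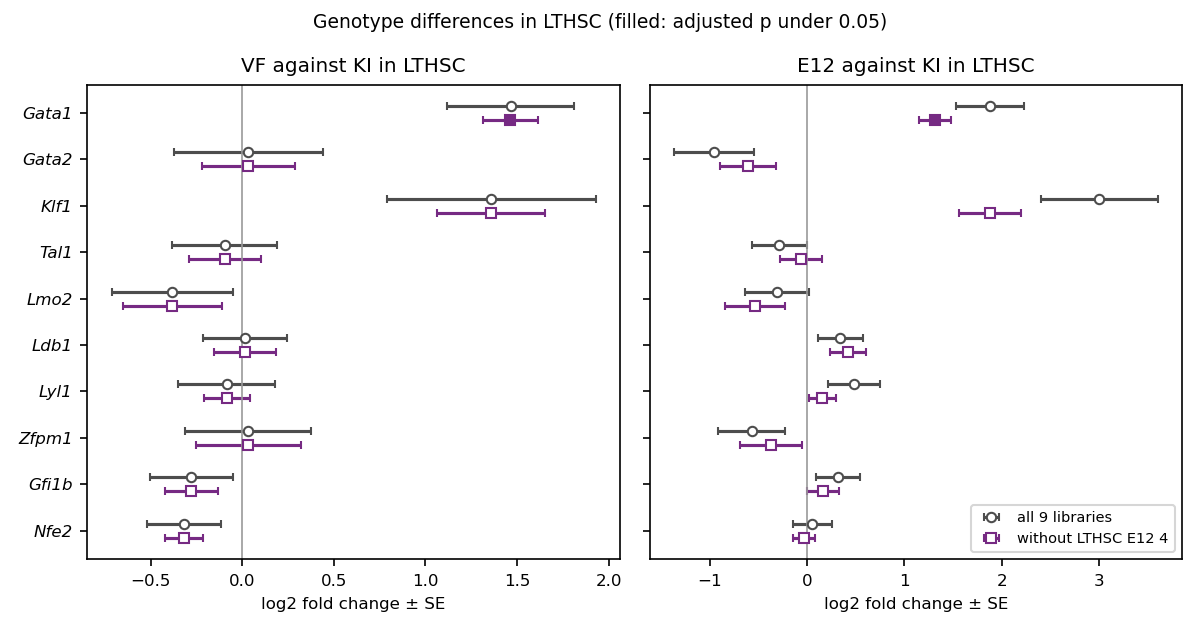
Log2 fold changes with SE (edgeR) of the 10 members for VF against KI (left) and E12 against KI (right) in LTHSC, with all 9 libraries (grey circles) and without LTHSC E12 replicate 4 (purple squares), filled where the adjusted p was under 0.05. Gata1 is the filled member in both panels, at 1.46 and 1.31 without that library, and the Klf1 value for E12 moves from 3.00 to 1.88.

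The other members in LTHSC stayed closer to KI. Nfe2 was at 594.5, 590.5 and 618 CPM in VF against 709, 682 and 799 in KI, with no overlap (-0.32, SE 0.20, adjusted p = 0.77). Ldb1 in E12 (38.7, 29.4 and 26.7 CPM) lay above KI (25.4, 23.7 and 24.7), by 0.34 (SE 0.23, adjusted p = 0.50). In VF Ldb1 also had no overlap with KI, at a difference of only 0.017 (SE 0.23, edgeR adjusted p = 0.995). In VF against E12, Gata2, Klf1, Ldb1, Lyl1, Gfi1b and Nfe2 had no overlap, without a call. Gata2 in E12 gave -0.96 (SE 0.41, adjusted p = 0.34), with overlapping libraries, and -0.60 (adjusted p = 0.38) without replicate 4.

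In preMegE VF against KI called 0 of 10 members, at a background of 0.0151% of 13231 genes, and 0 members had an unadjusted p under 0.05 or were called by DESeq2, whose background was 0.514%. Over all 13231 genes, 870 had an unadjusted p under 0.05. Gata2 (234, 261 and 247 CPM in VF, 101, 190.2 and 126 in KI) and Lyl1 (121, 161 and 132 in VF, 74.2, 113 and 84.6 in KI) had no overlap between the groups. Their log2 differences were 0.82 (SE 0.39) and 0.60 (SE 0.34), both at an adjusted p of 0.64. The share of all genes without overlap was not counted here either. Gata1 (-0.05, SE 0.56) and Klf1 (-0.23, SE 0.59) had wide errors here. The spread within groups was large, since Gata1 ran from 207 to 499.8 CPM over the 3 KI and from 217 to 560.3 over the 3 VF libraries.

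In MkP 0 of 10 members were called in VF against KI, E12 against KI or VF against E12, and the background was 0% of 13435 genes in each. An unadjusted p under 0.05 was seen for 1 member (Zfpm1), 2 members (Zfpm1 and Ldb1) and 0 members. Over all 13435 genes it was seen for 3611, 3899 and 167. DESeq2 called 0 members in VF against KI, at a background of 18.9%, and 1 (Zfpm1) in E12 against KI, at 21.1%. Zfpm1 was at lower values in E12 (66.1, 80.2 and 92.6 CPM) than in KI (156, 215.5 and 94.0), with no overlap, by -1.06 (SE 0.33, adjusted p = 0.077, and 0.019 with DESeq2). For VF it gave -0.89 (SE 0.33, adjusted p = 0.12). Ldb1 in E12 (21.0, 27.6 and 33.2 CPM) also lay below KI (34.8, 48.3 and 47.1), by -0.78 (SE 0.30, adjusted p = 0.13), and Lmo2 in E12 (749, 871 and 735.5) above KI (656, 391 and 564), by 0.45 (SE 0.34, adjusted p = 0.38). How many of all genes lacked overlap was not counted in MkP.

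The 3 MkP KI libraries differed widely among themselves, and several directions turn with the KI library left out. Gata1 was at 340 CPM in replicate 4 and at 139 and 148 in replicates 5 and 6, Gata2 at 514 against 224 and 166, and Gfi1b at 415 against 147 and 221. Replicate 4 lay within the E12 range for Gata1, Gata2 and Gfi1b, and replicates 5 and 6 lay below both the E12 and the VF libraries. With all libraries E12 against KI gave 0.62 for Gata1, 0.56 for Gata2 and 0.47 for Gfi1b, and VF against KI 0.37, 0.45 and 0.18, none called. Without replicates 5 and 6 the KI group is replicate 4 alone, assumed to vary like the other groups, and the signs turned, to -0.04, -0.17 and -0.15 for E12 and to -0.29, -0.28 and -0.44 for VF, with 0 members called at backgrounds of 0.684% and 0.414%. Without replicate 4 they grew to 1.11 (adjusted p = 0.00016), 1.14 (adjusted p = 0.0012) and 0.92 (adjusted p = 0.0045) for E12 and to 0.86 (adjusted p = 0.00099), 1.03 (adjusted p = 0.0023) and 0.64 (adjusted p = 0.030) for VF. Leaving out replicate 4 raised the count of called members to 8 for E12 and 6 for VF, where 49.8% and 48.9% of all 13762 genes tested were called as well, and the KI group is then the 2 libraries of high Malat1 alone. In replicates 5 and 6 the summed lymphoid genes were also at 4901 and 6592 CPM against 352 in replicate 4, and mast cell, basophil and eosinophil genes at 1088 and 1030 against 318. Of the lymphoid genes Nkg7 alone averaged 3839 CPM over the 3 MkP KI libraries. Replicate 4 held 2419 CPM of Xist, the RNA of the inactive X, and 0.030 of the Y-linked gene Ddx3y, while replicates 5 and 6 held 49.3 and 11.6 of Xist and 29.4 and 22.5 of Ddx3y. The part of these markers, and of sex, in the Gata1, Gata2 and Gfi1b values was not tested.

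Whether the genotype differences themselves differ between populations was tested in the fit over all 24 libraries. VF against KI in preMegE and in MkP, E12 against KI in MkP and VF against E12 in MkP, each set against the same difference in LTHSC, called 0 of 10 members, at backgrounds of 0%, 0.0134%, 0.0334% and 0%. An unadjusted p under 0.05 was seen for 2 (Gata1 and Klf1), 1 (Klf1), 3 (Klf1, Gata2 and Ldb1) and 2 members (Klf1 and Lyl1). Over all 14965 genes tested it was seen for 663, 2152, 3643 and 555. DESeq2 called 1 member, Klf1 for E12 in MkP against LTHSC, at a background of 13.7%. For Gata1, VF minus KI was 1.54 lower on the log2 scale in preMegE than in LTHSC (-1.54, SE 0.57, adjusted p = 0.91), and without the 4 libraries of low scaling factor it was -1.83 (SE 0.32, adjusted p = 0.026), at a background of 0.207%. For Klf1, E12 minus KI was lower in MkP than in LTHSC by -3.18 (SE 0.69, adjusted p = 0.057, and 0.00051 with DESeq2). That Klf1 value was -2.12 (adjusted p = 0.19) without LTHSC E12 replicate 4. It passed without LTHSC E12 replicate 11 (-3.56, adjusted p = 0.025), without LTHSC E12 replicate 2 (-3.47, adjusted p = 0.021) and without MkP KI replicate 4 (-3.25, adjusted p = 0.0024). In these 3 fits the share of all genes called rose as well, to 4.95%, 10.2% and 29.5%.

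Each member's closest companions over the 24 libraries were found among 9756 genes with a mean of at least 10 CPM, by the Pearson r of log2 CPM, as a description of libraries that share the population differences. For Gata1 they were the replication genes Mcm5 (0.963) and Mcm10 (0.950) and the cell cycle factor Mybl2 (0.954), and for Gfi1b Atad3a (0.922), Bop1 (0.908) and Nup93 (0.894). For Klf1 they were Sphk1 (0.981), Tspo2 (0.973) and the blood group gene Kel (0.964). Gata2 was closest to Mink1 (0.916), Epb41 (0.914) and the ETS factor Fli1 (0.910), and its r with Gata1 was 0.046. Tal1 and Zfpm1 were alike with an r of 0.834, Tal1 being closest to Jarid2 (0.869) and Zfpm1 to Unc119 (0.887), and Lyl1 ran against both (-0.643 and -0.660) and was closest to Ggt5 (0.902). Nfe2, Ldb1 and Lmo2 were closest to Tspan4 (0.857), Stard10 (0.862) and Yaf2 (0.832). For Tal1, Zfpm1 and Ldb1 the highest values lay in the libraries of low scaling factor, MkP KI replicate 5 for the first 2 and preMegE KI replicate 1 for the third. The part of those libraries in these r was not tested.

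Gata1 lies on the X chromosome (GRCm38.p6, chrX:7959260-7976663). Xist, the RNA of the inactive X, and the Y-linked gene Ddx3y were both present in the replicate 2 libraries of VF in all 3 populations, with Xist at 439, 317 and 565 CPM, and in MkP E12 replicate 2, with Xist at 814. Gata1 in VF replicate 2 against replicates 1 and 3 was at 88.4 CPM against 79.1 and 67.3 in LTHSC, at 560.3 against 217 and 393 in preMegE and at 299 against 259 and 290.1 in MkP. In MkP KI replicate 4 and E12 replicates 4 and 5 Ddx3y was near 0, and Gata1 was 340, 314 and 346 CPM. In MkP libraries with Ddx3y Gata1 was 359 in E12 replicate 2, 259 to 299 in VF, and 139 and 148 in KI replicates 5 and 6. The part of sex in the Gata1 values was not tested. Known genes that overlap Gata1 (Gm39488 and Gm52419), Gata2, Gfi1b, Lmo2, Tal1 and Zfpm1 in the annotation are long non-coding RNAs.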

How the data were processed

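Gene counts of 24 mouse Smart-seq2 libraries were analysed. The authors deposited raw counts per Entrez gene. The submitters' processing notes name mm10, Subread 1.6.4, featureCounts and STAR 2.7.0c, and the annotation, strand and treatment of multiply mapped reads are not given in the sources used here. The deposited length column served only for RPKM and is no other measurement. The name MEP heads 6 columns of the deposited counts, and their genotypes and replicate numbers match those of preMegE, to which they were assigned. Rows without a symbol (16, at most 0.0132% of a library) were left out. Of 276 library pairs 0 were identical (smallest chi-square per degree of freedom 19.8).

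Tests used edgeR 4.0.16 under R 4.3.3 (TMM factors, low counts removed by filterByExpr with the groups given, robust 2-sided quasi-likelihood F test, Benjamini-Hochberg over all genes tested, threshold 0.05; the SE is the fold change over the root of F). Genotypes were fitted within a population; populations, averaged over shared genotypes, and differences of differences over all 24 libraries. The pipeline was tested on simulated counts. Alternatives were RLE scaling, no count filter, DESeq2 1.42.0, limma 3.58.1 voom, left-out libraries, single genotypes, the compared groups alone and a replicate block (for differences of differences added after seeing the data). The members, lists and comparisons were chosen with earlier results of these data known. By name the text gives the 10 members, the 2 members of largest change called per list and comparison (only those whose higher group averaged 10 CPM or more) and the 3 genes most like each member; not all are printed. Coordinates and promoters are those of RefSeq, GRCm38.p6. Without molecular identifiers in Smart-seq2, a count is not a molecule, and the spread between libraries sets the precision.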

Additional observations from a re-analysis of the deposited data

How the results depend on the processing

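RLE scaling, no filter on low counts and limma voom left the count of called members within 1.5 times the main one in all 14 comparisons. For VF against KI in LTHSC, 0 called members became 1 with DESeq2, 1 without LTHSC E12 replicate 4 and without the 4 libraries of low TMM factor, and 2 with only the groups compared. For E12 against KI in LTHSC, 0 became 2 with DESeq2, 1 without LTHSC E12 replicate 4 and without the 4 libraries, and 0 to 2 on leaving out single libraries. For E12 against KI in MkP, 0 became 1 with DESeq2 and 0 to 8 on leaving out single libraries, and for VF against KI in MkP 0 to 6, the highest without MkP KI replicate 4. For preMegE against LTHSC, 7 became 3 within VF alone (6 to 8 on leaving out single libraries). For MkP against LTHSC, 7 became 4 within E12 and 2 within VF (6 to 7). For MkP against preMegE, 3 became 5 with DESeq2, 1 within KI, 1 within VF and 1 to 3 on leaving out single libraries. VF minus KI in preMegE against LTHSC went from 0 to 1 without the 4 libraries, and E12 minus KI in MkP against LTHSC from 0 to 1 with DESeq2 and to 0 to 3 on leaving out single libraries. The 3 came without MkP KI replicate 4, where 29.5% of all genes were called. The cause was not tested; fits within 1 genotype use fewer samples.

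Some directions turned. In MkP against LTHSC Lmo2 went from -0.028 to 0.080 without the 4 libraries, 0.034 without LTHSC E12 replicate 4, 0.31 within E12, 0.14 within VF, and -0.13 to 0.034 on leaving out single libraries; Gata2 was -0.029 within KI, Ldb1 -0.21 within E12 and Nfe2 0.0032 within VF. In MkP against preMegE Lyl1 was 0.012 with RLE and 0.010 with DESeq2, 0.18 within KI and -0.17 to 0.092 on leaving out single libraries, and Ldb1 -0.29 to 0.015. Ldb1 in VF against KI in LTHSC ran from -0.0014 to 0.028, and Gfi1b in VF against KI in MkP from -0.085 to 0.64, on leaving out single libraries. Without length scaling the mean log2 ratio of Gata1 to Gata2 turned to -0.603 to -0.454 in the MkP groups and to -0.611 in LTHSC E12. That of Tal1 to Lyl1 turned above 0 in the MkP groups and in preMegE KI. Without the 4 libraries, which leaves replicate 4 as the only MkP KI library, the MkP values turned to -0.039 (Gata1), -0.17 (Gata2) and -0.15 (Gfi1b) for E12 and -0.29, -0.28 and -0.44 for VF.

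Same-numbered libraries had correlations of their deviations between -0.058 and 0.256, not over 0.1 in every pair, and the labels tie no number to an animal, so the numbers were not taken as pairs. In VF, Xist was at 439, 317 and 565 CPM in replicate 2 of the 3 populations and at most 4.33 in the others, a hint from the data that a number may be shared there. With a replicate block on the 2 groups alone, VF against KI in LTHSC called 2 members (Gata1 1.47 and Klf1; 5.33% of all genes); the same 2 were called without a block when only these groups were fitted (6.84%). With the block MkP against preMegE called 1 (7.7% of all genes), MkP against LTHSC 6 (13.9%), where Lmo2 was 0.042, and preMegE against LTHSC 7 (42.1%). VF against KI in preMegE and E12 against KI in MkP called 0 (0.0756% and 0.0386%). A block over 4 groups, added after seeing the data, called 0 for VF minus KI in preMegE, E12 minus KI in MkP and VF minus E12 in MkP against LTHSC (Gata1 -1.55 in the first, Klf1 -3.16 in the second). The shares of all genes called there were 0.0209%, 0% and 0%. No paired analysis was possible for the other genotype comparisons because their groups share fewer than 2 numbers, or for VF minus KI in MkP because its KI numbers occur in no other group used.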
